A study of Sus scrofa with 6 samples.

Results

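The S100 genes encode small EF-hand proteins that change shape when they bind calcium and then attach to other proteins. Those described here were 10 genes, S100A1, S100A4, S100A6, S100A8, S100A9, S100A10, S100A11, S100A12, S100A13 and S100B, looked up in a deposited expression table of 30477 genes. Values were found for 9 of the 10, of which 7 carried the symbol and 2 (S100A9 and S100A13) carried only an identifier and were recognised by the description beside it. S100B, a glial and Schwann cell protein, was not analysed here. The table also held 9 further S100 genes, which are described after the 9 members.

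RNA came from the abdominal aorta of male Wuzhishan miniature pigs, a Chinese breed used as an atherosclerosis model, with 1 library per pig. The NC group (n = 3) received normal chow and the HFCF group (n = 3) chow enriched in fat, cholesterol and fructose, each for 6 months, and the labels name no genetic alteration in either. The labels give an age of 3 to 4 months and the methods an older age at purchase. The methods describe more pigs per group than were sequenced, and state that all were killed by exsanguination.

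S100A8 and S100A9 pair to form calprotectin, which together with S100A12 makes up much of the soluble protein of neutrophils and is also made by young monocytes. When released, these proteins act as alarm signals through the receptors TLR4 and AGER (also called RAGE). The other members act mainly inside cells of the vessel wall or in macrophages: S100A4 binds non-muscle myosin and is abundant in motile fibroblasts and leukocytes, S100A6 binds the ubiquitin-related protein CACYBP, S100A10 and S100A11 bind annexins at membranes, S100A13 carries FGF1 out of cells, and S100A1 tunes calcium handling in muscle.

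Of the 9 members, 4 (S100A4, S100A9, S100A10 and S100A13) were called higher in the HFCF group, 0 were called lower and 5 did not pass. A call means an adjusted p under 0.05 in limma's moderated test on log2(FPKM + 0.1), adjusted by Benjamini-Hochberg over all 15384 genes whose mean reached 0.1 FPKM. A log2 difference is the HFCF mean minus the NC mean on that scale, given with its standard error (SE). FPKM counts fragments per length of transcript and per mapped read of the library, so levels can be compared between genes. Of all tested genes, 22.8% were called higher and 6.16% lower. These shares are the background for every count of called genes in a list below. The median log2 difference of the 9 members was 2.10, and it was 1.46 without S100A8 and S100A9, which passed the filter on low values only through the HFCF pigs. The median of all tested genes was 0.32.

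That background depended on scaling. The deposited values summed to between 272207 and 287141 FPKM in the NC pigs and to between 330222 and 338690 FPKM in the HFCF pigs, and the calls over all genes were 3505 higher and 948 lower. They were 2032 and 1968 after median-ratio scaling, 1748 and 1782 after quantile normalization, and 2229 and 1527 after rescaling to TPM. Read counts were not used here, so absolute depth is unknown; the smallest steps between low values put NC pigs 2 and 3 at 1.09 and 1.37 times the depth of NC pig 1, and the HFCF libraries at 1.03 to 1.06 times. HFCF pig 1 stood apart from the other HFCF pigs, with 2846 FPKM of the hemoglobin gene HBB against 84.7 and 93.9 FPKM. Where its omission ended or gave a call of an S100 gene, the value without it is given. The same was done where a stated log2 difference of an S100 gene or receptor moved by over 1.5 times.

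**Figure D1:**
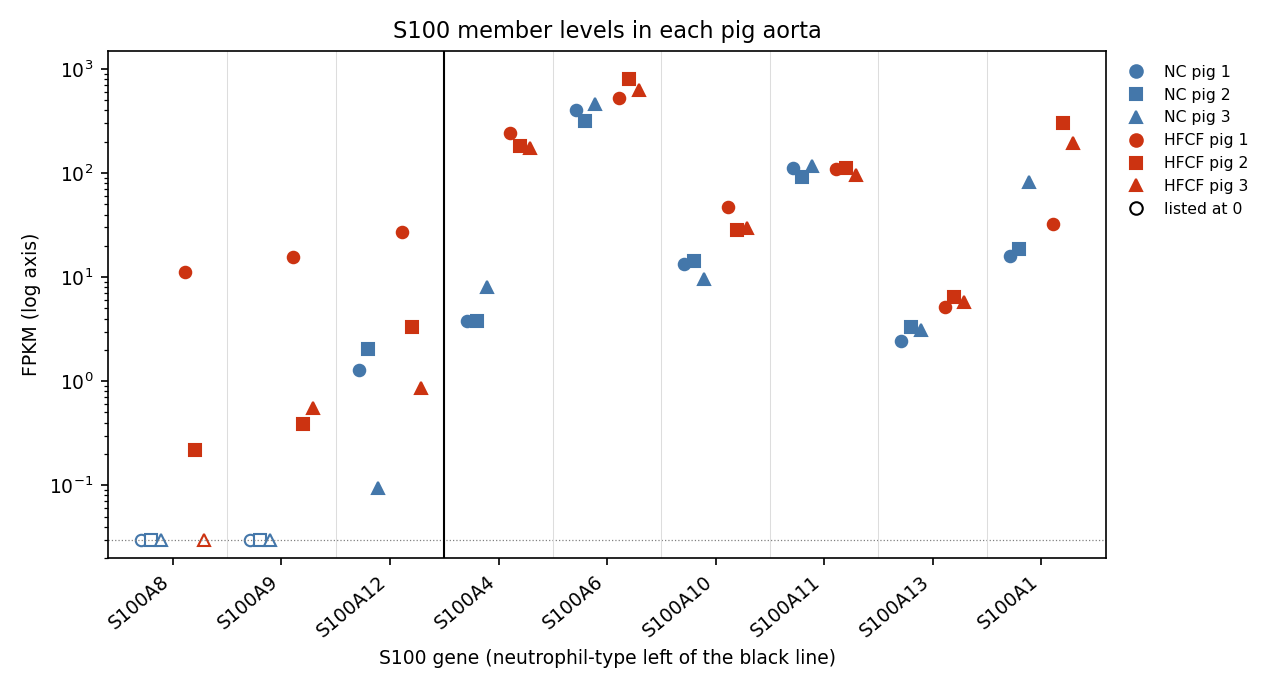
FPKM of the 9 S100 members in each of the 6 pigs on a log axis, with NC pigs in blue, HFCF pigs in red and open symbols for values listed at 0. S100A4 separated the groups by the widest gap, from at most 7.99 FPKM in NC pigs to at least 175.9 FPKM in HFCF pigs, whereas S100A8, S100A9 and S100A12 were by far highest in HFCF pig 1.

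Among the neutrophil-type genes, S100A8 (ENSSSCG00000006590) was listed at 0 in all 3 NC pigs and in HFCF pig 3, at 0.219 FPKM in HFCF pig 2 and at 11.2 FPKM in HFCF pig 1. The groups overlapped at 0, and the difference did not pass (limma adjusted p = 0.216), nor did it without HFCF pig 1 (adjusted p = 0.299). S100A9 (ENSSSCG00000006588), its partner, was likewise listed at 0 in all 3 NC pigs and had 15.5, 0.384 and 0.554 FPKM in HFCF pigs 1 to 3. Each HFCF pig thus had a value where the NC pigs had none, and S100A9 was called (limma adjusted p = 0.046). A listed 0 can be a failed estimate, since the macrophage and monocyte gene LYZ was also at 0 in all 6 pigs. No fold is given for either gene for that reason.

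The call of S100A9 was close to the threshold. Its adjusted p in limma was 0.00729 without HFCF pig 1. That omission sets NC pigs all at 0 against 0.384 and 0.554 FPKM, so nothing is read from it. The adjusted p was 0.129, 0.112 and 0.105 without NC pig 1, 2 or 3 and 0.0521 without HFCF pig 3, so the call was lost in each of these 4 cases. It also ended with median-ratio scaling (0.0547) and quantile normalization (0.0642).

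S100A12 (ENSSSCG00000032857), the third calgranulin and a ligand of AGER, was measured at 1.29, 2.02 and 0.0939 FPKM in the NC pigs and at 27.3, 3.35 and 0.853 FPKM in the HFCF pigs. HFCF pig 3 lay below NC pigs 1 and 2, so the groups overlapped. The log2 difference was 2.43 (SE 1.34, limma adjusted p = 0.212), and it was 1.13 without HFCF pig 1 (limma adjusted p = 0.506) and 1.38 without NC pig 3. Unlike its 2 relatives it was listed above 0 in every chow-fed pig, though in NC pig 3 it lay below the pseudocount of 0.1 FPKM.

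The ratio of S100A8 to S100A9 could be formed only in the HFCF pigs and was 0.719 in pig 1, 0.57 in pig 2 and 0 in pig 3. That of S100A12 to S100A9 was 1.76, 8.71 and 1.54 in the same pigs. With S100A9 at 0 in all NC pigs, the NC side of both ratios rests on the pseudocount, and no difference between the diets is read from them.

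HFCF pig 1 had 101.8 times as much S100A8, 33.1 times as much S100A9 and 13.02 times as much S100A12 as the mean of the other HFCF pigs, where S100A8 was at 0.219 and 0 FPKM. The red blood cell genes HBB and ALAS2 were 31.9 and 29.3 times as high there. CXCR2, the chemokine receptor of neutrophils, was 31.1 times as high, with 5.19 FPKM in HFCF pig 1, 0.079 and 0.254 FPKM in the other HFCF pigs and 0.0348 to 0.104 FPKM in the NC pigs. CSF3R, the receptor of the neutrophil growth factor G-CSF, was 8.64 times as high, MMP9 5.89 times and FCN1, a ficolin of monocytes, 22.7 times. The macrophage genes CD68 and AIF1 were 2.46 and 2.498 times as high. ELANE, a further neutrophil marker, was lower in HFCF pig 1 (0.714 FPKM) than in any other pig, with 1.71 and 0.970 FPKM in the other HFCF pigs. The excess in HFCF pig 1 thus differed in size among the S100 genes and among the neutrophil markers and was absent for ELANE. Its origin was not tested.

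Of 10 neutrophil markers 7 were measured and 4 tested, and their summed level was 1.05 to 1.998 FPKM in NC pigs and 93.3, 18.6 and 7.94 FPKM in HFCF pigs 1 to 3. CSF3R and MMP9, a protease that macrophages also make, were called higher. The granule genes MPO, MMP8 and LTF, like ELANE transcribed in immature cells of the bone marrow, were at or near 0 in every pig. Their highest values, all in HFCF pig 1, were 0.0587, 0.0413 and 0.345 FPKM. ELANE lay between 0.714 FPKM in HFCF pig 1 and 1.71 FPKM in HFCF pig 2, with overlapping groups. Of 5 red blood cell markers 4 were tested and 0 called, with a summed level of 22.0 to 178.8 FPKM in the NC pigs and 86.5 to 2898 FPKM in the HFCF pigs. Of 6 monocyte markers 4 of the 5 tested were called higher, with a summed level of 5.85 to 6.13 FPKM in NC pigs and 20.5 to 52.1 FPKM in HFCF pigs. One of these calls, VCAN, rests on a row whose symbol and description disagree. T cell markers summed to 0.597 to 0.758 FPKM in NC pigs and 1.92 to 10.02 FPKM in HFCF pigs, and 1 of 4 was called. Their part in the levels of the neutrophil-type S100 genes was not tested.

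**Figure D2:**
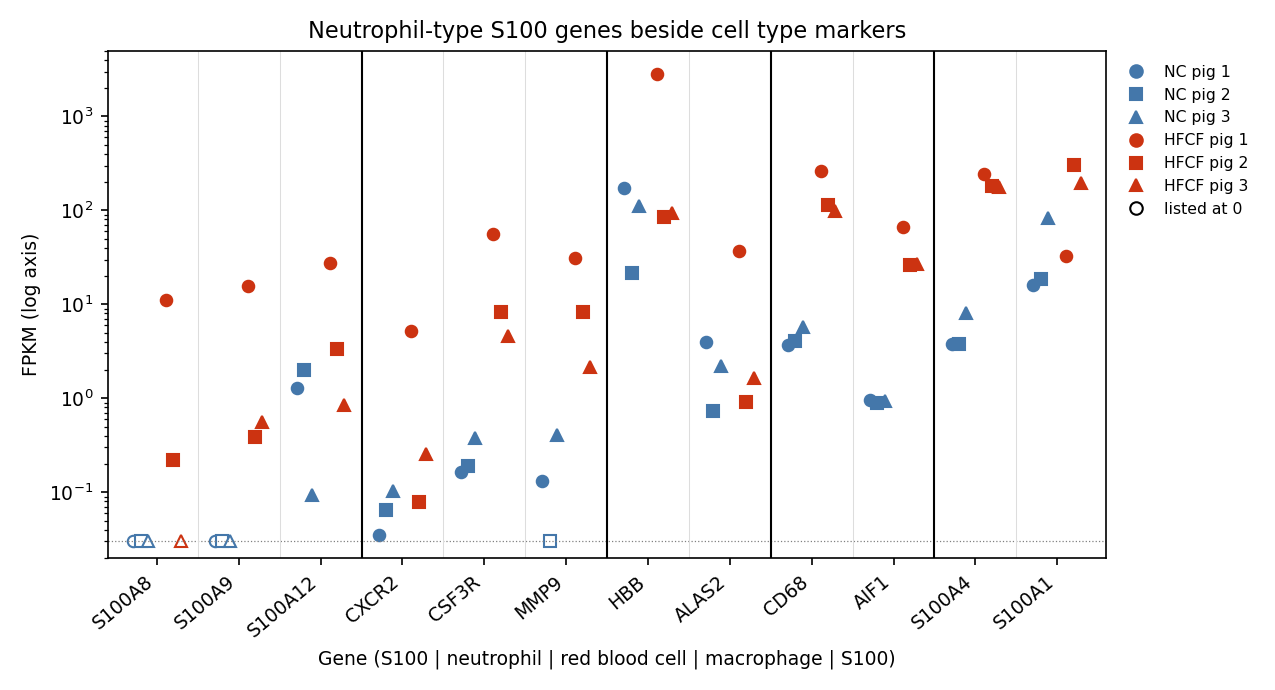
FPKM per pig on a log axis for the 3 neutrophil-type S100 genes, 3 neutrophil markers, 2 red blood cell markers, 2 macrophage markers, S100A4 and S100A1, with symbols as for the members and open symbols for values listed at 0. HFCF pig 1 (red circles) was far above the other HFCF pigs for S100A8, S100A9, S100A12, CXCR2 and the red cell genes, close to them for S100A4, and below them for S100A1.

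S100A4 (ENSSSCG00000006578) gave the largest difference among the S100 genes with signal in NC pigs. Its levels were 3.77, 3.79 and 7.99 FPKM in the NC pigs and 242.8, 182.6 and 175.9 FPKM in the HFCF pigs, means of 5.18 ± 2.44 and 200.4 ± 36.8 FPKM (SD, n = 3 each). The lowest HFCF pig was far above the highest NC pig. The log2 difference was 5.32 (SE 0.31, limma adjusted p = 0.00031), the 26th largest of the 15384, and lay 5.003 above the median gene. It stayed called in all 16 alternative analyses, between 4.97 and 5.68, and it was 5.18 without HFCF pig 1. Fibroblasts, macrophages and lymphocytes are all known to express this gene. In bulk tissue more cells of a type and more RNA per cell cannot be told apart.

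S100A10 (ENSSSCG00000006612), the light chain that joins annexin A2 and binds plasminogen at the cell surface, was 13.3, 14.3 and 9.65 FPKM in the NC pigs. It was 46.7, 28.2 and 29.6 FPKM in the HFCF pigs, so the groups were apart, with HFCF pig 1 the highest. The log2 difference was 1.46 (SE 0.25, limma adjusted p = 0.00692), and it was called in all 16 alternatives, between 1.11 and 1.59.

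S100A13 (ENSSSCG00000038991), the partner of FGF1 in secretion without a signal peptide, was 2.43, 3.31 and 3.07 FPKM in the NC pigs and 5.13, 6.44 and 5.80 FPKM in the HFCF pigs. These groups did not overlap, and the pigs of each group lay close together. The log2 difference was 0.96 (SE 0.20, limma adjusted p = 0.0132). Its call was lost without HFCF pig 2 (adjusted p = 0.0517), with median-ratio scaling (0.61, adjusted p = 0.0509) and with quantile normalization (0.52, adjusted p = 0.0918).

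S100A6 (ENSSSCG00000021084), also named calcyclin and known from proliferating cells and smooth muscle, was the most abundant member in both groups. It had 406.3, 319.8 and 460.5 FPKM in the NC pigs and 522.3, 797.3 and 629.2 FPKM in the HFCF pigs. Every HFCF pig lay above every NC pig, but the difference did not pass, with a log2 difference of 0.71 (SE 0.22, limma adjusted p = 0.0522). It passed without HFCF pig 1 (0.86, adjusted p = 0.0446) and when only genes with a mean of at least 1 FPKM were tested (adjusted p = 0.0447), and was 0.35, 0.26 and 0.45 after median-ratio scaling, quantile normalization and rescaling to TPM, with adjusted p from 0.196 to 0.411.

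S100A11 (ENSSSCG00000006610), which binds annexin A1, was 111.4, 92.3 and 116.2 FPKM in the NC pigs and 110.6, 112.2 and 96.6 FPKM in the HFCF pigs. The groups overlapped fully, and the log2 difference was 0.00 (95% interval -0.35 to 0.35, limma adjusted p = 0.994). Relative to the median of all genes it was -0.32, and it turned negative with each of the 3 scalings, to between -0.36 and -0.079, without passing. Without HFCF pig 1 it was -0.027.

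S100A1 (ENSSSCG00000031053) varied more than any other vessel-cell member. Its levels were 15.9, 18.6 and 82.9 FPKM in the NC pigs and 32.7, 304.8 and 194.6 FPKM in the HFCF pigs, with HFCF pig 1 below NC pig 3. The log2 difference was 2.10 (SE 0.94, limma adjusted p = 0.135), and without HFCF pig 1 it was 3.06 and passed (adjusted p = 0.0377). It was 1.45 without HFCF pig 2. In the reference annotation S100A1 overlaps the neighbouring S100A13, and the use of strand in counting is not given in the sources used here, so reads of the 2 genes may have been shared.

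The pigs with the most S100A1 (NC pig 3 and HFCF pigs 2 and 3) were also those with the most COMP, a cartilage and tendon matrix gene that smooth muscle also makes, at 30.9, 29.3 and 145.5 FPKM. In the other 3 pigs COMP was 0.0357 to 3.69 FPKM. The other chondrocyte markers did not share this pattern over all pigs. ACAN was highest in NC pig 1 (9.23 FPKM), CHAD was lower in NC pig 3 (9.18 FPKM) than in the other NC pigs, and SNORC was highest in HFCF pig 1 (2.05 FPKM), where S100A1 was low. Within the HFCF group, ACAN (1.13, 3.14 and 1.75 FPKM in pigs 1 to 3) and CHAD (8.08, 21.2 and 16.3 FPKM) followed the order of S100A1. Within that group SNORC, SOX9 and COL2A1 were instead highest in pig 1. SOX9 reached at most 0.250 FPKM and COL2A1 at most 0.141 FPKM, and the list of 6, whose highest sum was mostly COMP, came to 24.8 to 44.1 FPKM in NC pigs and 11.6 to 164.1 FPKM in HFCF pigs, with 0 of the 5 tested called. The striated muscle list, whose heart members MYH7 and TNNT2 were at most 0.0749 FPKM, summed to 4.70 to 8.53 FPKM in NC pigs and 1.33 to 2.79 FPKM in HFCF pigs, with 0 of 2 called. The part of these cells in S100A1 was not tested.

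Among the 7 members with signal in NC pigs, 3 were called higher, and the groups did not overlap for 4 (S100A4, S100A6, S100A10 and S100A13), each higher in the HFCF pigs. The latter pattern was shown by 36.1% of all tested genes, and 22.8% of them were called higher. The thresholds of the study were read as a ratio of group means above 2 and an unadjusted p under 0.05. The limma p was used, since the methods name no RNA-Seq test, so the calls can differ from the study's own. S100A4 and S100A10 were then higher and S100A13 was not, with a ratio of 1.97, against 20.7% of all genes. S100A9 has no ratio, since its NC mean is 0, and meets these thresholds only for that reason.

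**Figure D3:**
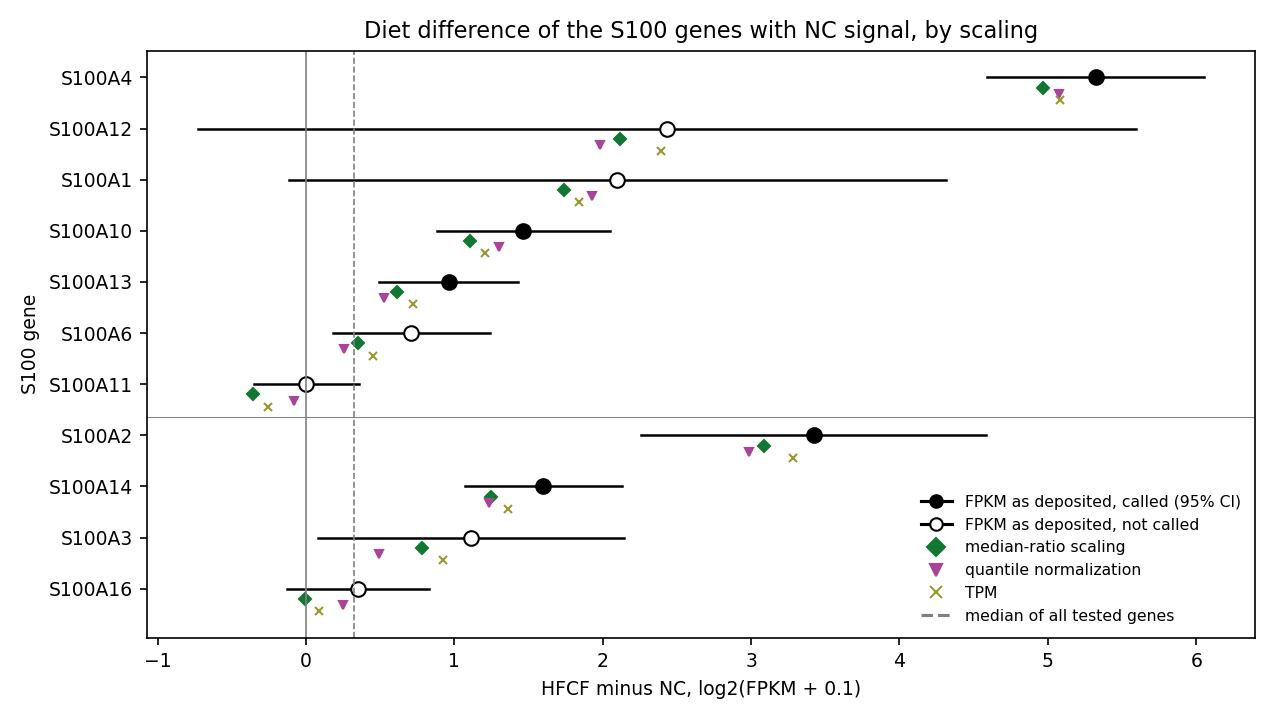
Difference between HFCF and NC pigs in log2(FPKM + 0.1) for the 7 members and 4 further S100 genes with signal in NC pigs, with 95% intervals (black, filled when called) and the value under 3 other scalings (coloured). Each scaling gave a lower value for each of the 11 genes, by unequal amounts, and S100A4, S100A10, S100A2 and S100A14 stayed well above 0, whereas S100A11 fell below 0.

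S100A4 was the fifth most abundant member in the NC group and the second in the HFCF group. In the NC group it ran from S100A6 (395.5 FPKM) through S100A11 (106.6), S100A1 (39.1), S100A10 (12.4), S100A4 (5.18), S100A13 (2.94) and S100A12 (1.14) to S100A9 and S100A8 at 0. In the HFCF group it was S100A6 (649.6 FPKM), S100A4 (200.4), S100A1 (177.3), S100A11 (106.5), S100A10 (34.8), S100A12 (10.5), S100A13 (5.79), S100A9 (5.48) and S100A8 (3.79). In the NC group no neighbours in this order overlapped in range, except S100A9 and S100A8 at 0. In the HFCF group the range of S100A1 ran into those of S100A4, S100A11 and S100A10, and the ranges of the last 4 genes overlapped one another.

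As a share of the summed FPKM of all 18 S100 genes, S100A4 made up 0.632% to 1.10% in the NC pigs and 11.98% to 22.5% in the HFCF pigs. S100A6 made up 63.2% to 68.2% and 48.5% to 52.3%. S100A11 made up 15.97% to 18.7% and 7.36% to 10.3%. The whole family summed to 506.1 to 727.5 FPKM in the NC pigs and 1078 to 1525 FPKM in the HFCF pigs.

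Across the 6 pigs, which include both diets, the log2 levels of S100A8 and S100A9 had a Pearson r of 0.93 and those of S100A4 and S100A13 of 0.94. S100A6 followed S100A1 (0.89) and was less alike to S100A8 (0.24) and S100A12 (0.17). S100A10 was alike to both S100A4 (0.91) and S100A9 (0.91). These are descriptions over 6 libraries, and the diet and HFCF pig 1 enter each of them.

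Among 9582 other genes with a symbol and a mean of at least 1 FPKM, those whose levels most resembled S100A9 included UCP2 (r = 0.999), SEPTIN1 (0.996), DNAJB1 (0.996) and HMGB2 (0.996). UCP2, a mitochondrial carrier, was 2.16 to 2.32 FPKM in the NC pigs and 37.5, 6.05 and 6.09 FPKM in the HFCF pigs. DNAJB1, a heat shock co-chaperone, was 18.4 to 21.6 FPKM and 212.7, 37.1 and 42.3 FPKM. For S100A8 the 5 most similar genes were SLC9A3R1, ENPP3, SCPEP1, HSPA6 and GLIS3 (r from 0.984 to 0.992). HSPA6, an inducible heat shock protein, was 103.8 FPKM in HFCF pig 1 and 4.28 and 2.24 FPKM in the other HFCF pigs. For S100A12 they were SEMA7A, KIF21B, ALDH2, FABP5 and ZNF467 (r from 0.987 to 0.993), which like S100A12 were lowest in NC pig 3 among the NC pigs. The lists of most similar genes of the 3 calgranulins shared no gene.

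Of the 9 further S100 genes, 5 passed the filter and 2 were called, both higher, beside 22.8% of all tested genes. S100A2, known from basal epithelium, was 0.508, 0.598 and 1.70 FPKM in the NC pigs and 9.69, 15.2 and 6.21 FPKM in the HFCF pigs. Its groups were apart, with a log2 difference of 3.42 (SE 0.49, limma adjusted p = 0.00419). S100A14 rose from 4.12, 3.67 and 2.49 FPKM to 10.8, 9.24 and 11.2 FPKM, a log2 difference of 1.60 (SE 0.22, limma adjusted p = 0.00385). Both were called in all 16 alternatives.

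S100A3 was 0.717, 0.554 and 1.79 FPKM in the NC pigs and 2.33, 2.47 and 1.52 FPKM in the HFCF pigs, a log2 difference of 1.11 (limma adjusted p = 0.0981) that passed only without NC pig 3 (1.57, adjusted p = 0.0245). S100A16 had 36.1, 47.2 and 41.1 FPKM and 40.2, 61.8 and 58.3 FPKM, a log2 difference of 0.35 (limma adjusted p = 0.233). For S100A16 it was -0.0057 after median-ratio scaling and 0.54 without HFCF pig 1 (limma adjusted p = 0.0556). S100A5 was listed at 0 in all NC pigs and HFCF pig 1 and was 0.480 and 0.212 FPKM in HFCF pigs 2 and 3. It reached the filter only through HFCF pigs 2 and 3, and did not pass with all pigs (limma adjusted p = 0.158). Without HFCF pig 1 it passed (limma adjusted p = 0.0179). That omission leaves NC pigs all at 0 against the only pigs with signal, so nothing is read from it. S100G and S100Z did not reach the filter, at 0.296 and 0.248 FPKM or less in every pig. S100A7 and an S100A7-like gene, both of skin, were listed at 0 in all 6 pigs.

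In all, 16 of the S100 genes lie together on 1 chromosome in the RefSeq annotation of the assembly Sscrofa11.1, from S100A1 to S100A10, with S100A11 and S100A10 set off by 29 other coding genes, among them genes of the skin barrier. The methods name an earlier pig assembly, so only the order of genes was used. S100A4 lies between S100A3 and S100A5, whose HFCF means were 2.11 and 0.231 FPKM against 200.4 FPKM for S100A4. S100A12 lies between S100A8 and S100A9 and, in contrast to both, was listed above 0 in NC pigs, where a listed 0 can be a failed estimate. S100A10 and S100A11 are neighbours, and S100A10 was called while S100A11 had a log2 difference of 0.00. Before S100A1 stands CHTOP, a chromatin factor, with a log2 difference of 0.73 (limma adjusted p = 0.016), and before it SNAPIN with 0.13 (limma adjusted p = 0.518).

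**Figure D4:**
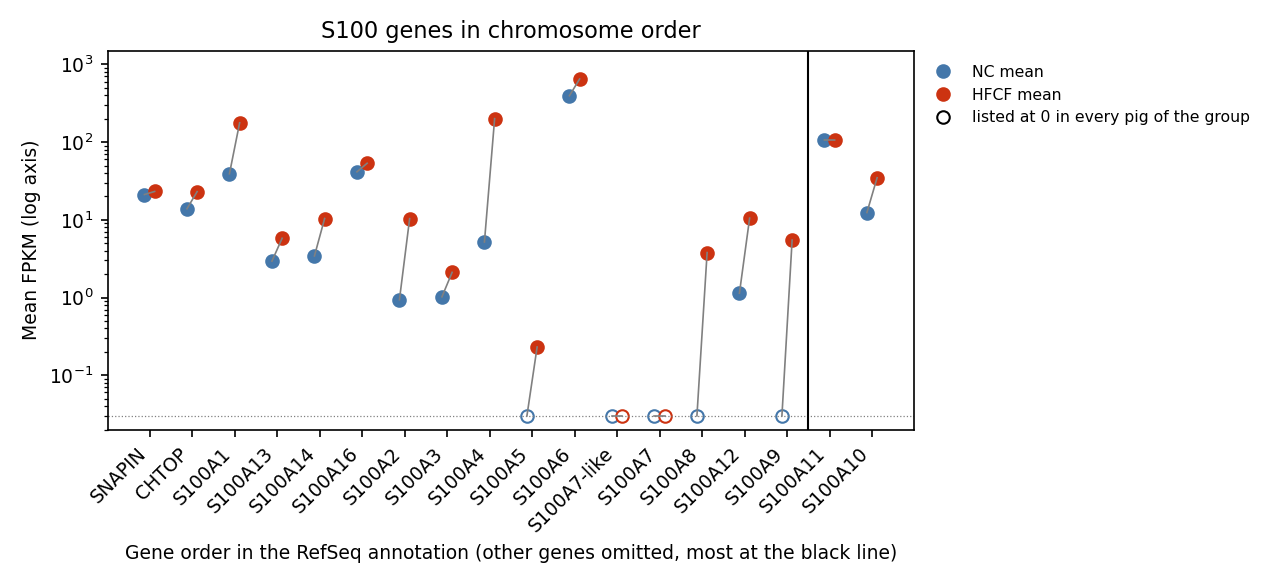
Group mean FPKM on a log axis for the S100 genes in the order of the RefSeq annotation, preceded by SNAPIN and CHTOP, with NC in blue and HFCF in red; genes of other names are left out, 29 of them at the black line. Neighbours differed in level and in change, as S100A4 at 200.4 FPKM beside S100A3 at 2.11 and S100A5 at 0.231 FPKM in the HFCF group.

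Among 5 receptors of secreted S100 proteins, 2 were called higher and 0 lower, beside 22.8% and 6.16% of all tested genes. TLR4, the receptor of calprotectin and of endotoxin, was 0.636, 0.670 and 0.754 FPKM in the NC pigs and 11.2, 4.55 and 3.97 FPKM in the HFCF pigs (log2 difference 2.93, limma adjusted p = 0.00338). CD36, a scavenger receptor that takes up fatty acids carried by S100A8 and S100A9, was 3.58, 6.07 and 1.26 FPKM in the NC pigs and 31.6, 17.6 and 11.1 FPKM in the HFCF pigs (2.55, limma adjusted p = 0.0202). The groups of both genes were apart. The call of CD36 was lost without NC pig 1 (adjusted p = 0.0652), HFCF pig 1 (0.0634) or HFCF pig 2 (0.0552), and with no filter on low values (0.12).

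AGER, the receptor of S100A12, was near the lower limit, at 0.0999, 0.0204 and 0.0773 FPKM in the NC pigs and 0.138, 0.661 and 0.0959 FPKM in the HFCF pigs (1.02, limma adjusted p = 0.235). EMB, an immunoglobulin-like membrane protein reported to bind S100A8 and S100A9, was 0.0671 to 0.121 FPKM and 1.07, 0.189 and 0.207 FPKM (1.34, limma adjusted p = 0.133, and 0.68 without HFCF pig 1). BSG (basigin), reported to bind S100A9, was the most abundant of the 5 at 56.7, 50.5 and 51.8 FPKM in the NC pigs and 34.3, 47.9 and 48.1 FPKM in the HFCF pigs. It had a log2 difference of -0.30 (limma adjusted p = 0.224) and passed after median-ratio scaling (-0.66, adjusted p = 0.0402). Without HFCF pig 1 the difference of BSG was -0.14 (limma adjusted p = 0.432).

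Of 6 annexin and scaffold genes, 1 was called higher and 0 lower, beside 22.8% and 6.16% of all tested genes. ANXA1, the partner of S100A11, rose from 24.8, 30.8 and 27.7 FPKM to 84.8, 48.9 and 49.0 FPKM (1.09, limma adjusted p = 0.0166), and lost its call without NC pig 1 (adjusted p = 0.0687), with no filter on low values (0.083) and after median-ratio scaling (0.73, adjusted p = 0.0539). ANXA2, the partner of S100A10, was 97.6, 92.1 and 86.5 FPKM and 126.0, 109.7 and 107.2 FPKM (0.31, limma adjusted p = 0.126). ANXA6, which did not pass either (-0.62, limma adjusted p = 0.0618), passed as lower with each of the 3 scalings (-0.98 to -0.80). ANXA11 (-0.28, limma adjusted p = 0.195) passed as lower after median-ratio scaling (-0.64, adjusted p = 0.0223) and TPM (-0.54, adjusted p = 0.0343). Median-ratio scaling thus turned the count of this list to 0 higher and 2 lower, beside 2032 higher and 1968 lower of all 15384 tested genes.

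Within a pig, the ratio of S100A10 to ANXA2 does not depend on the scaling of the library. It was 0.136, 0.155 and 0.112 in the NC pigs. In the HFCF pigs it was 0.371, 0.257 and 0.276, higher in 3 of 3. The ratio of S100A11 to ANXA1 was 4.49, 3.00 and 4.19 under chow and 1.30, 2.29 and 1.97 under the HFCF diet, lower in 3 of 3. On the log2 scale these are differences of 1.15 and -1.08. Each had p = 0.1 in a two-sided exact permutation test, which is the smallest p that 3 pigs against 3 allow, and p = 0.133 when adjusted over the 4 ratios computed, which include the 2 with S100A9.

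Of the intracellular partners, 1 of 4 was called higher, near the 22.8% of all tested genes. It was CACYBP, the binding protein of S100A6, with 4.39, 4.08 and 4.09 FPKM in the NC pigs and 6.57, 6.50 and 5.96 FPKM in the HFCF pigs (0.59, limma adjusted p = 0.0295). Its call was lost without any one of the 6 pigs (adjusted p from 0.0542 to 0.0922) and with each of the 3 scalings. MYH9, the non-muscle myosin bound by S100A4, was 78.7, 65.8 and 155.2 FPKM in the NC pigs and 56.5, 58.2 and 37.7 FPKM in the HFCF pigs. Its groups were apart with HFCF lower, and it did not pass (-0.90, limma adjusted p = 0.0889) except after median-ratio scaling (-1.25, adjusted p = 0.0335). Among the plasmin genes, which S100A10 serves as a docking site, 0 of 4 were called. Of the 3 genes tied to export without a signal peptide, 2 were tested and 0 called, and FGF1 had 6.83 to 28.0 FPKM in NC pigs and 8.78 to 20.04 FPKM in HFCF pigs.

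The subunits of the phagocyte NADPH oxidase, to which S100A8 and S100A9 deliver arachidonic acid, rose in all 4 genes examined, and CYBB was not analysed here. CYBA had 21.0 to 24.7 FPKM in the NC pigs and 172.8, 113.3 and 99.98 FPKM in the HFCF pigs (2.42, limma adjusted p = 0.00109). NCF1, NCF4 and RAC2 had log2 differences of 3.53, 2.74 and 2.75 (limma adjusted p from 0.00159 to 0.0107). With no filter the calls of NCF1 (adjusted p = 0.0531) and RAC2 (0.0691) were lost. Their groups did not overlap, and they were at 0.125 to 0.516 FPKM in NC pigs and 1.36 to 10.3 FPKM in HFCF pigs.

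Of 9 factors known to induce S100A8 and S100A9, 8 were tested and 3 called, each higher, beside 22.8% of all tested genes. SPI1 (PU.1), the master factor of myeloid cells, was 1.95, 3.13 and 2.95 FPKM in the NC pigs and 128.4, 50.5 and 40.8 FPKM in the HFCF pigs (4.56, limma adjusted p = 0.00117). CEBPA rose from 1.63, 2.34 and 0.489 FPKM to 36.7, 15.6 and 10.8 FPKM (3.77, limma adjusted p = 0.00647), a call lost with no filter (0.055). CEBPB rose from 40.9, 30.2 and 21.0 FPKM to 88.2, 78.7 and 120.8 FPKM (1.67, limma adjusted p = 0.00641). In contrast to the calgranulins, these 3 factors were high in all 3 HFCF pigs. IL1B, the inflammatory cytokine, was 5.04 FPKM in HFCF pig 1 and 0.590 and 0.501 FPKM in the other HFCF pigs, against 0.217 to 0.501 FPKM in the NC pigs (1.59, limma adjusted p = 0.184, and 0.59 without HFCF pig 1).

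**Figure D5:**
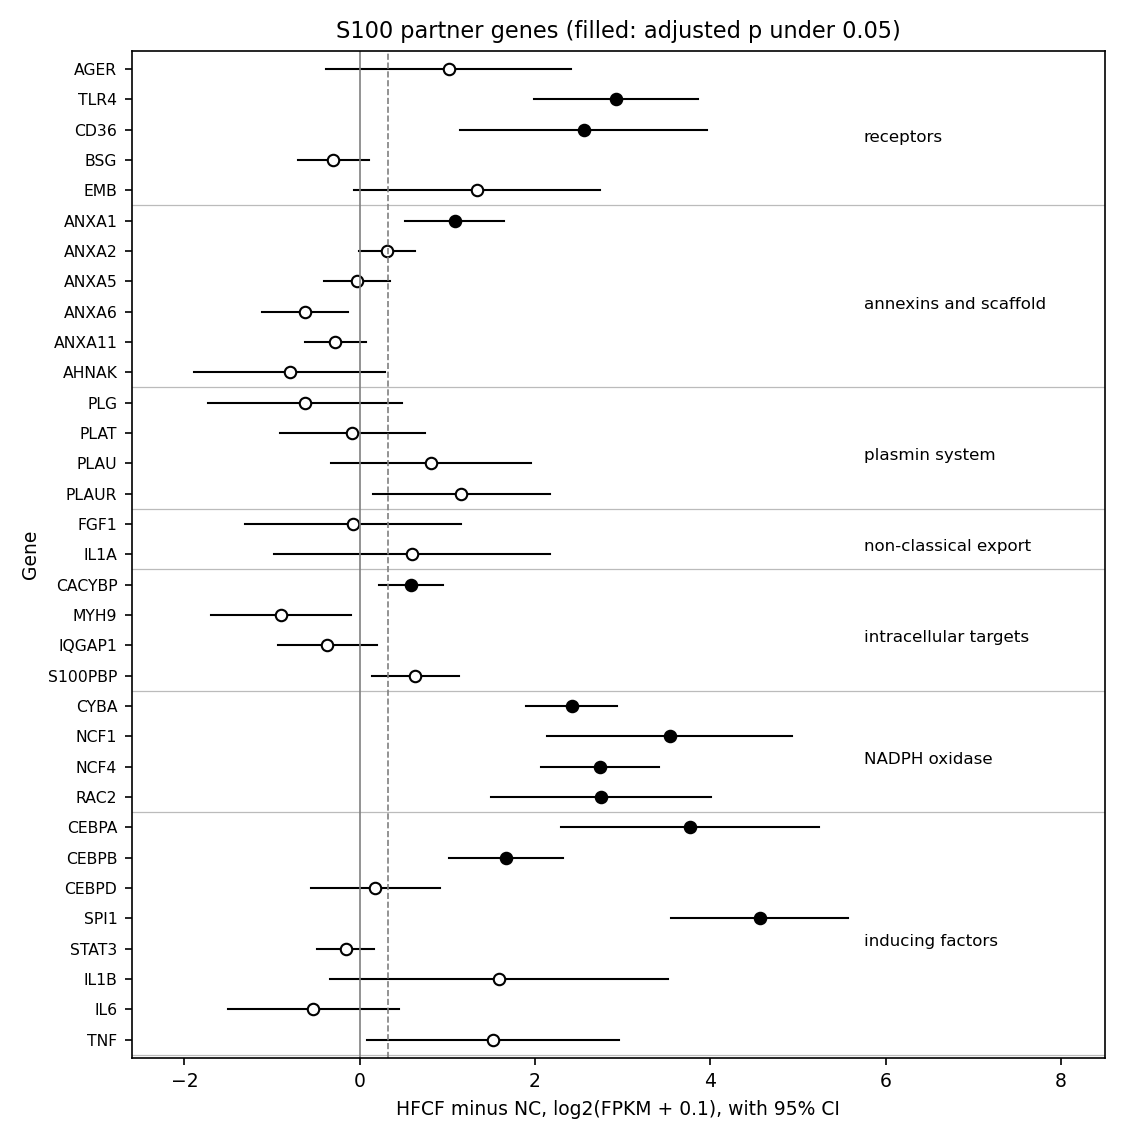
Difference between HFCF and NC pigs in log2(FPKM + 0.1) with 95% intervals for the tested partner genes by group, filled when called; the dashed line is the median of all tested genes at 0.32. The 4 NADPH oxidase genes lay between 2.42 and 3.53, while the annexins and the plasmin genes spread around 0.

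The marker lists of cells that could hold the vessel-cell S100 genes moved in both directions. Of 8 macrophage markers 7 were called higher, summing to 30.9 to 34.8 FPKM in NC pigs and 1013, 444.7 and 415.1 FPKM in HFCF pigs. Of 8 contractile smooth muscle markers, led by ACTA2 at 3359 to 9145 FPKM over all pigs, 6 were called lower, summing to 15914 to 22729 FPKM in NC pigs and 7997 to 12892 FPKM in HFCF pigs. Fibroblast markers had 1 of 6 called (LUM, higher) and sums of 1251 to 2684 and 1626 to 2826 FPKM, and endothelial markers had 0 of 6 called and sums of 119.3 to 204.1 and 96.8 to 233.7 FPKM. Schwann cell markers had 0 of 5 called (4.72 to 21.1 and 7.11 to 23.3 FPKM) and adipocyte markers 0 of 4 (3.80 to 120.9 and 5.58 to 17.1 FPKM). The ratio of HFCF pig 1 to the mean of the other HFCF pigs was computed for only some macrophage markers. It was 2.15 to 2.498 for CSF1R, C1QB, CD68 and AIF1, and 1.35 and 1.62 for S100A4 and S100A10. In HFCF pigs 1 to 3, CD163 was 27.3, 6.47 and 8.94 FPKM and MSR1 21.1, 11.6 and 4.37 FPKM. C1QA was 137.9, 73.2 and 64.0 FPKM, and MARCO was 0.645, 0.913 and 0 FPKM. The part of these cells in the S100 differences was not tested.

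Ribosomal protein genes have short transcripts, as the S100 genes do. Of 48 such genes, a list picked after the values had been seen, 33 were called higher and 0 lower, with a median log2 difference of 0.98. The 7 members with signal in NC pigs ran from 0.00 (S100A11), 0.71 (S100A6) and 0.96 (S100A13) through 1.46 (S100A10), 2.10 (S100A1) and 2.43 (S100A12) to 5.32 (S100A4). Mitochondrial genes made up 4.65% to 6.93% of the summed FPKM in the NC pigs and 9.02% to 13.4% in the HFCF pigs. The part of either in the S100 values was not tested.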

How the data were processed

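Abdominal aorta RNA of 3 NC and 3 HFCF pigs was analysed, 1 library per pig. Per the labels and methods, the authors trimmed reads with cutadapt 1.9 and used HISAT2 for alignment and StringTie for assembly. The deposited unit is FPKM per gene, without read counts, and 0.0001 FPKM was read as 0. GO and KEGG columns were not used. Genes whose mean reached 0.1 FPKM were tested on log2(FPKM + 0.1), a scale that understates changes of low genes, with limma 3.58.1 in R 4.3.3 (eBayes with a trend) and Benjamini-Hochberg adjustment. Ratios were tested by exact permutation (scipy 1.17.1). The members, partner lists and marker lists were chosen with earlier results of these data known. By rule, all S100 genes, every receptor, called partners, flanking genes and the 5 genes most similar to each calgranulin were named. ANXA2, ANXA6, ANXA11, MYH9, FGF1, IL1B and the markers given with values were named after their values were seen. The code was tested on simulated data, where 138 of 200 genes given a log2 difference of 2 in either direction were called, with 7 false calls. A true difference of that size can thus fail to pass. Alternatives were other pseudocounts, filters and scalings, no trend, a replicate block and each pig left out. A few genes that the rule names are not reported here.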

Additional observations from a re-analysis of the deposited data

How the results depend on the processing

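The count of called members, 4 of 9 as deposited, fell to 2 under median-ratio scaling and to 2 under quantile normalization. The genes called higher among all 15384 fell too, from 3505 to 2032 and 1748. Counting only the 7 members carrying their symbol also left 2 called (added after the data had been seen). The count of called members lay between 3 and 6 when single pigs were omitted, beside 1961 to 2800 of all tested genes called higher. Replicate numbers did not pair the pigs (correlations of same-numbered deviations 0.02, -0.08 and -0.07). With the replicate block 3 members were called, beside 2232 of all tested genes called higher. S100A4 and S100A10 were called in all 16 alternatives. S100A9 lost its call in 11 of 16 (limma adjusted p from 0.00729 to 0.211), among them a pseudocount of 1 (0.193) and no filter (0.211). The sign turned for S100A11 with median-ratio scaling (-0.36), quantile normalization (-0.079), TPM (-0.26) and TPM without mitochondrial genes (-0.16, added), for S100A16 and ANXA2 with median-ratio scaling (-0.0057 and -0.046), and for CEBPD with median-ratio scaling (-0.18) and TPM (-0.082). With single pigs omitted, the log2 difference lay between -0.099 and 0.070 for S100A11, -0.14 and 0.075 for ANXA5, -0.41 and 0.14 for PLAT, -0.61 and 0.40 for FGF1, and -0.053 and 0.55 for CEBPD. The log2 ratio of S100A10 to ANXA2 lay between 0.99 and 1.26 and that of S100A11 to ANXA1 between -1.26 and -0.85 with the other pseudocounts and single pigs omitted, the alternatives run for ratios. Read depth per gene is unknown, so values under about 0.1 FPKM carry an unknown counting error.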
